A study of Sus scrofa with 4 samples.

Results

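The 10 genes described here, STMN2, MAP2, DCX, TUBB3, INA, DPYSL5, L1CAM, SNAP25, ELAVL3 and ELAVL4, encode proteins of the neuronal cytoskeleton, the growth cone, the synapse and the neuronal RNA-binding machinery. They were selected by symbol and found by their Ensembl identifiers among the 25880 genes of the pig (Sus scrofa) count table. All 10 were among the 15739 genes that passed the low-count filter and were tested.

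The study followed skin fibroblasts through reprogramming, and the comparisons asked how their transcripts changed on the way to induced pluripotent stem cells (iPSCs). All 4 RNA-seq libraries came from cells named N01F, ear skin-derived fibroblasts of 1 post-neonatal pig. The fibroblast group was 1 library of passage 1 cells that had not been reprogrammed. The induced neural stem cell-like cell (iNSLC) group was 1 library of passage 1 cells from dome-shaped colonies, which appeared after the fibroblasts received the EP-B episomal vectors and were cultured in NSM, a medium made for naive-state pluripotent cells. The iPSC group was 2 libraries, clones 1 and 2 at passage 3, isolated as colonies after iNSLCs were moved to ESM, an embryonic stem cell medium, with activin A, transforming growth factor β1 and the WNT inhibitor IWP2. EP-B carried OCT4, SOX2, KLF4, L-MYC, LIN28, KLF2, NANOG, GLIS1, KDM4D and a dominant-negative mouse Trp53, and none of the 10 genes. From fibroblasts to iNSLCs the cell state, medium and vector exposure changed together, and from iNSLCs to iPSCs the cell state, medium and passage, so their parts cannot be told apart. Whether the iNSLC library came from a clone or from a bulk culture, and how feeder cells were handled before RNA extraction, are not given in the sources used here.

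Neurons assemble microtubules from tubulin, of which TUBB3 is the neuron-enriched β subunit, and control them with stathmins such as STMN2 and with microtubule-binding proteins such as DCX in migrating neuroblasts and MAP2 in dendrites. Alpha-internexin (INA) forms intermediate filaments, collapsin response mediator proteins such as DPYSL5 act in growth cone guidance, and L1CAM is an adhesion molecule of growing axons. SNAP25 is a SNARE protein of synaptic vesicle release, and ELAVL3 and ELAVL4 (HuC and HuD) bind AU-rich messages in neurons. These genes are known as neuronal markers and are normally low in skin fibroblasts, where the repressor REST holds many neuronal genes silent.

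The libraries held between 21640374 and 62421521 counts. Folds used a floor of 3 counts per library, which stood for 0.0648 to 0.127 CPM (counts relative to library size, adjusted by the trimmed mean of M-values, TMM). The fibroblast library was the deepest and had the lowest TMM factor, 0.742 against 1.09 to 1.11. TMM scaling lowered the log2 ratios of iPSCs and of iNSLCs against the fibroblast library by 0.57 and 0.58 compared with scaling by total counts. The fibroblast and iNSLC groups had no replicate, so the only replicate spread was that between 2 clones of 1 animal, with 1 residual degree of freedom. The edgeR fit moderated this spread with that of all genes. The p-values and intervals therefore also rest on this sharing across genes. In bulk RNA, fewer cells of a type and less RNA per cell cannot be told apart.

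All 10 neuronal transcripts were scarce in fibroblasts. STMN2, MAP2, INA, ELAVL3 and ELAVL4 lay in the iPSC clones between the fibroblast and iNSLC libraries, by both tests below. TUBB3, SNAP25 and DPYSL5 were above fibroblasts in the iPSCs but were not told apart from iNSLCs by the test. DCX in the iPSCs lay below both groups and L1CAM above both. The 10 genes summed to 17.1 CPM in the fibroblast library, 1259 CPM in the iNSLC library and 620 and 693 CPM in iPSC clones 1 and 2. The iNSLC library had the highest level of 9 of the 10 genes, against 25.8% of all genes tested, and the exception was L1CAM, which was highest in the iPSCs. In the fibroblast library 9 genes had at least 1 count, 4 reached 1 CPM and none reached 10 CPM. In the iNSLC library all 10 genes reached 10 CPM.

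**Figure D1:**
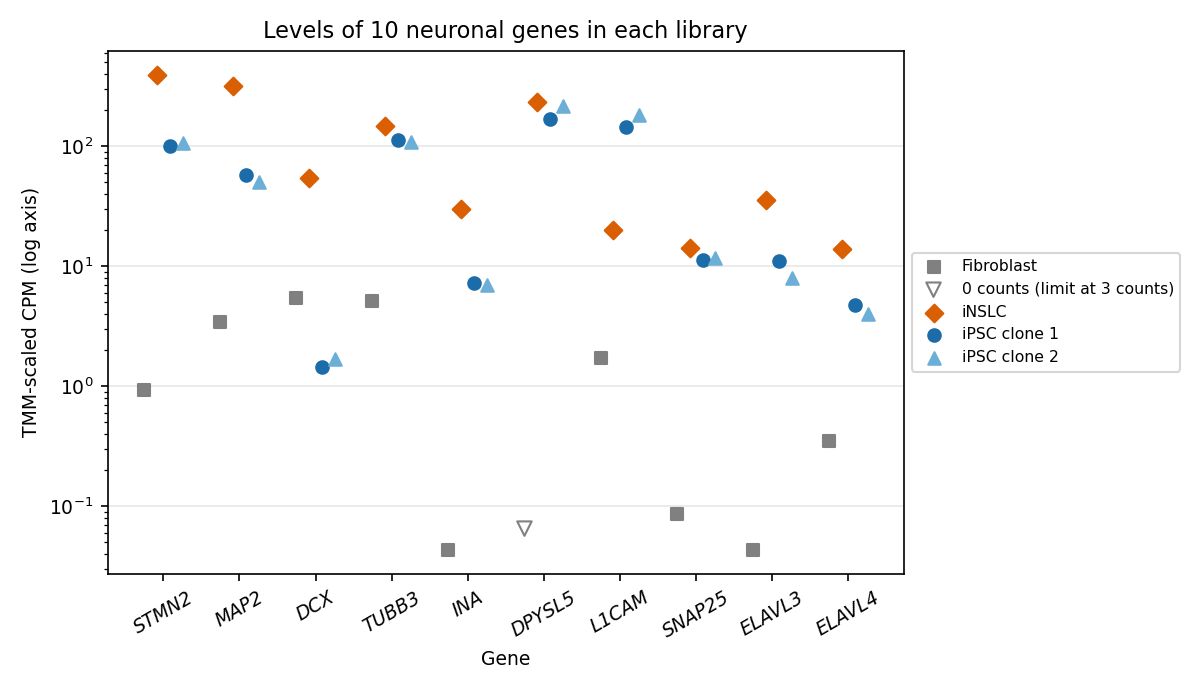
TMM-scaled CPM on a log axis of the 10 neuronal genes, with 1 point for each of the 4 libraries. The open triangle marks the 0 counts of DPYSL5 in fibroblasts at the level of 3 counts. The iNSLC library is the highest for every gene but L1CAM, and the iPSC clones lie below the fibroblast library for DCX.

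Against the fibroblast library, 9 of the 10 genes rose in the iPSCs and 1, DCX, fell, by edgeR's quasi-likelihood test at an adjusted p under 0.05. The background of this comparison was 29.6% of tested genes higher and 28.2% lower (51.2% of calls higher, or 72.5% with scaling by total counts). The median log2 ratio was 6.68 over the 10 genes and 0.13 over all genes tested. By size, 6 genes were at least 4-fold higher in the iPSCs with 10 CPM or more in both clones (STMN2, TUBB3, MAP2, L1CAM, SNAP25 and DPYSL5), and 0 were 4-fold lower. That size was passed by 6.33% of all genes upwards and by 6.94% downwards.

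Against the iNSLC library, 6 of the 10 genes fell in the iPSCs (STMN2, DCX, INA, ELAVL3, ELAVL4 and MAP2), 1 rose (L1CAM) and 3 did not pass the test (TUBB3, SNAP25 and DPYSL5). The background here was 14.2% of tested genes lower and 13.1% higher. The median log2 ratio was -1.79 over the 10 genes and -0.00 over all genes. By size, DCX, INA and MAP2 were at least 4-fold lower and L1CAM at least 4-fold higher, where 2.50% of all genes were 4-fold lower and 2.08% 4-fold higher.

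The step from fibroblasts to iNSLCs had 1 library on each side and no test. All 10 genes were at least 4-fold higher in the iNSLC library with 10 CPM or more there, while 5.89% of all genes were, and 0 of the 10 genes but 5.69% of all genes were 4-fold lower. The median log2 ratio was 6.93 over the 10 genes, with a range of 3.34 to 11.82, and 0.10 over all genes. Between the 2 iPSC clones none of the 10 genes differed by 4-fold. That is near the share over all genes, 0.0254% upwards and 0.184% downwards in clone 2.

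**Figure D2:**
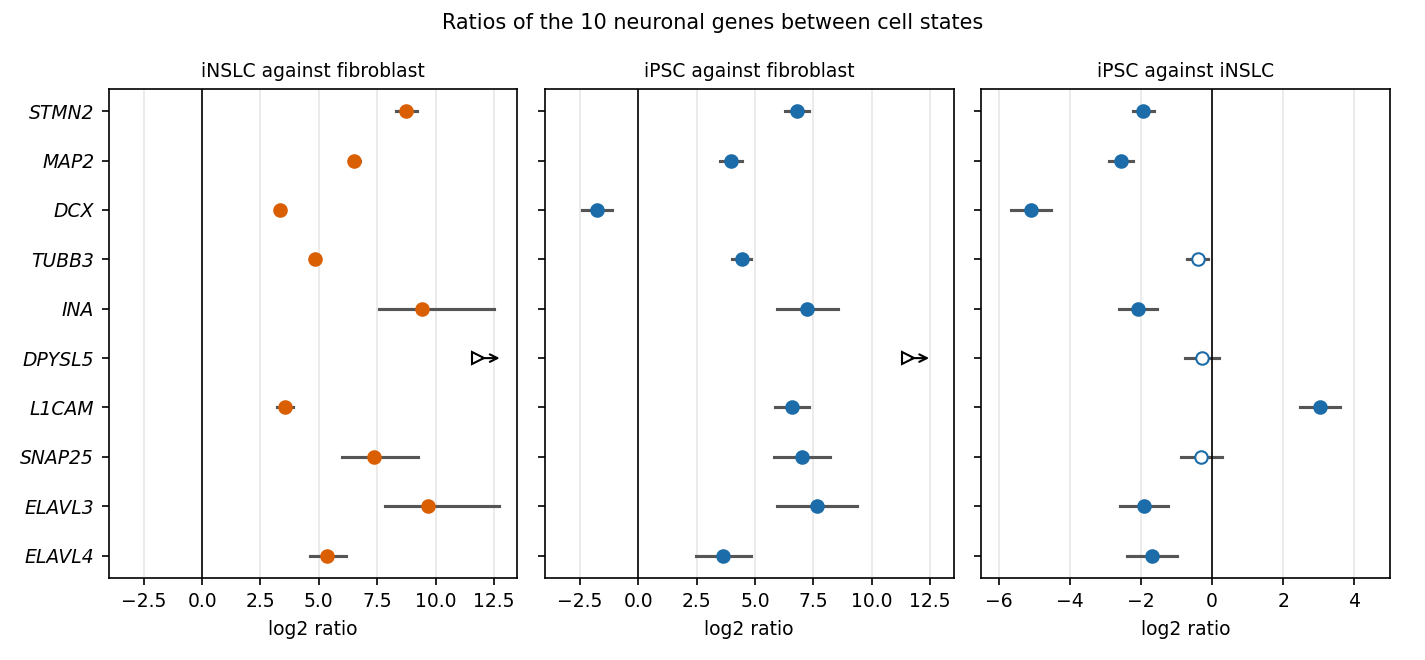
Log2 ratios of the 10 genes in 3 comparisons. In the left panel (1 library each, untested) the points are count ratios with 95% intervals for counting error only, and in the other panels they are edgeR estimates with 95% intervals, filled where called and open where not called. The arrows start at the ratios of DPYSL5 with its 0 counts in fibroblasts set to 3 counts. Its exact 95% intervals began lower. Against iNSLCs, L1CAM lies to the right and DCX farthest to the left.

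STMN2 (stathmin 2, also SCG10), a growth cone protein that binds tubulin and promotes microtubule disassembly, was the most abundant of the 10 genes in the iNSLC library. Its gene (ENSSSCG00000006160) lies on chromosome 4 of Sscrofa11.1, at 56952709 to 57006661 on the minus strand. STMN2 stood at 0.928 CPM in fibroblasts, 395 CPM in iNSLCs and 99.9 and 107 CPM in the iPSC clones. The iNSLC library was thus the highest, the clones lay close together well below it, and the fibroblast library was far below all others. In the iPSCs STMN2 averaged 104 ± 5.24 CPM (SD, n = 2), 112-fold over fibroblasts (log2 6.80 ± 0.18 SE, adjusted p = 0.000396, edgeR). It fell 3.82-fold from iNSLCs to iPSCs (log2 -1.93 ± 0.11 SE, 95% interval -2.23 to -1.64, adjusted p = 0.00353, edgeR). The iNSLC level was 426-fold the fibroblast level, with a counting interval of 316 to 589.

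MAP2, which stabilises dendritic microtubules, followed the same order of libraries (ENSSSCG00000016151, chromosome 15, 112156590 to 112463028, plus strand). Its levels were 3.45 CPM in fibroblasts, 314 CPM in iNSLCs and 56.9 and 50.5 CPM in the clones. MAP2 in the iPSCs (53.7 ± 4.53 CPM, SD, n = 2) rose 15.5-fold over fibroblasts (log2 3.95 ± 0.17 SE, adjusted p = 0.000516, edgeR) and fell 5.86-fold from iNSLCs (log2 -2.55 ± 0.12 SE, adjusted p = 0.00312, edgeR). The untested iNSLC to fibroblast ratio was 91.0, with a counting interval of 77.8 to 107.

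DCX (doublecortin), a microtubule-binding protein of newborn, migrating neurons, had the least retained expression (ENSSSCG00000012585, chromosome X, 91323817 to 91444294, minus strand). DCX had 5.38 CPM in fibroblasts, 54.6 CPM in iNSLCs and 1.44 and 1.68 CPM in the iPSC clones. Both clones were therefore below the fibroblast library as well as below the iNSLC library. DCX fell 35.0-fold from iNSLCs to iPSCs (log2 -5.10 ± 0.21 SE, 95% interval -5.66 to -4.54, adjusted p = 0.00266, edgeR). It also fell 3.45-fold from fibroblasts (log2 -1.76 ± 0.23 SE, adjusted p = 0.00496, edgeR), and with total counts the log2 ratio was -1.19 (adjusted p = 0.0116). The iNSLC library held 10.2-fold more DCX than the fibroblast library, with a counting interval of 8.88 to 11.7, the smallest such ratio of the 10 genes. The deposited gene model starts 200278 bases short of the RefSeq gene at the 5′ end and lacks 6146 bases at the 3′ end, so reads in those parts were not counted for DCX in any library.

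TUBB3, class III β-tubulin, was retained in the iPSCs near its iNSLC level (ENSSSCG00000002639, chromosome 6, 168452 to 178462, minus strand). Its levels were 5.14 CPM in fibroblasts, 147 CPM in iNSLCs and 113 and 108 CPM in the clones. TUBB3 in the iPSCs (111 ± 3.97 CPM, SD, n = 2) rose 21.5-fold over fibroblasts (log2 4.43 ± 0.15 SE, adjusted p = 0.000402, edgeR). The 1.33-fold lower mean in iPSCs than in iNSLCs missed the threshold (log2 -0.41 ± 0.11 SE, 95% interval -0.71 to -0.11, adjusted p = 0.0612, edgeR). That call sat at the threshold, with an adjusted p of 0.0487 under a filter of 1 CPM in 2 libraries and of 0.0497 when only these groups were fitted. β-tubulin genes are close in sequence, and reads shared between them may have been split or dropped in counting.

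INA, a neuronal intermediate filament subunit, was near zero in fibroblasts and moderate elsewhere (ENSSSCG00000010595, chromosome 14, 114227993 to 114240558, plus strand). It had 0.0432 CPM in fibroblasts, from 2 counts, then 29.9 CPM in iNSLCs and 7.18 and 6.97 CPM in the clones. The clones were nearly equal (7.07 ± 0.146 CPM, SD, n = 2). INA rose over fibroblasts (log2 7.24 ± 0.49 SE, adjusted p = 0.00102, edgeR), with a ratio of pooled counts of 163 and a counting interval of 44.9 to 1350.3. It fell 4.23-fold from iNSLCs to iPSCs (log2 -2.08 ± 0.19 SE, 95% interval -2.61 to -1.56, adjusted p = 0.00747, edgeR).

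DPYSL5 (CRMP5), which restrains neurite outgrowth and acts in growth cones, had the widest contrast with fibroblasts (ENSSSCG00000008560, chromosome 3, 112155542 to 112252968, minus strand). No read was counted in the fibroblast library, while the iNSLC library had 234 CPM and the clones 169 and 215 CPM. The iPSC mean (192 ± 32.5 CPM, SD, n = 2) was 2959-fold higher than in fibroblasts when that library was set to 3 counts. The rise passed the test (adjusted p = 0.000411, edgeR). The iNSLC level was 3618-fold higher on the same floor. The exact 95% intervals of the pooled count ratios allow for more counts in fibroblasts than that floor and began at 2498 for iPSCs and 2942 for iNSLCs. From iNSLCs to iPSCs the log2 difference of -0.29 ± 0.18 SE did not pass the test, and its 95% interval ran from -0.77 to 0.19 (adjusted p = 0.275, edgeR). The DPYSL5 row overlaps 450 bases of an unnamed gene on its own strand that had 0 counts in every library.

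L1CAM, the immunoglobulin-family adhesion molecule of axons, was the gene of the 10 that rose in both tested comparisons (ENSSSCG00000012787, chromosome X, 124596653 to 124609457, minus strand). It had 1.71 CPM in fibroblasts, 19.9 CPM in iNSLCs and 145 and 181 CPM in the clones. The libraries thus ordered as fibroblast, iNSLC, iPSC with no overlap. L1CAM in the iPSCs (163 ± 25.3 CPM, SD, n = 2) was 95.6-fold over fibroblasts (log2 6.58 ± 0.26 SE, adjusted p = 0.000476, edgeR) and 8.21-fold over iNSLCs (log2 3.04 ± 0.21 SE, 95% interval 2.48 to 3.60, adjusted p = 0.00474, edgeR). The gene model lacks 8835 bases of the RefSeq gene at the 5′ end and 1004 at the 3′ end.

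SNAP25, the plasma membrane SNARE of regulated exocytosis, was held at similar levels in reprogrammed cells (ENSSSCG00000026985, chromosome 17, 19141417 to 19227595, plus strand). Its levels were 0.0864 CPM in fibroblasts, from 4 counts, 14.2 CPM in iNSLCs and 11.3 and 11.7 CPM in the clones. The fibroblast library stood apart and the other libraries lay close together. SNAP25 rose 133-fold from fibroblasts to iPSCs (log2 7.00 ± 0.44 SE, adjusted p = 0.000901, edgeR). Against iNSLCs the log2 difference was -0.30 ± 0.21 SE, with a 95% interval of -0.87 to 0.27 (adjusted p = 0.328, edgeR), so a change of either sign within that interval cannot be told from none. The deposited model starts 45302 bases downstream of the RefSeq start.

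ELAVL3 and ELAVL4, the neuronal Hu proteins that stabilise messages of differentiating neurons, moved alike in direction. ELAVL3 (ENSSSCG00000013617, chromosome 2, 70117066 to 70134348, minus strand) had 0.0432 CPM in fibroblasts, from 2 counts, 35.2 CPM in iNSLCs and 11.0 and 8.02 CPM in the clones. ELAVL4 (ENSSSCG00000037291, chromosome 6, 161786375 to 161928950, minus strand) had 0.345 CPM in fibroblasts, 14.0 CPM in iNSLCs and 4.73 and 4.0 CPM in the clones. For both genes the clones lay between the fibroblast and iNSLC libraries. ELAVL3 rose over fibroblasts (log2 7.65 ± 0.62 SE, adjusted p = 0.00153, edgeR), with a pooled count ratio of 209 and a counting interval of 57.6 to 1730.2. It fell 3.70-fold from iNSLCs (log2 -1.91 ± 0.25 SE, adjusted p = 0.0140, edgeR). ELAVL4 rose 12.6-fold over fibroblasts (log2 3.63 ± 0.43 SE, adjusted p = 0.00390, edgeR) and fell 3.21-fold from iNSLCs (log2 -1.70 ± 0.26 SE, adjusted p = 0.0185, edgeR). The 3′ end of ELAVL3 overlaps 237 bases of PRKCSH on the opposite strand, which had 16667 counts in the fibroblast library where ELAVL3 had 2. At the 3′ end the gene models lack 2591 bases of the RefSeq gene for ELAVL3 and 2229 bases for ELAVL4.

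Log2 ratios of clone 2 to clone 1 ran from -0.45 to 0.35 in these genes, with a median of 0.00, against 0.03 over all genes. The range over all genes is not given here. Whether these genes differed less between clones than others was not tested. ELAVL3 was lowest in clone 2 relative to clone 1, at 0.731-fold with a counting interval of 0.622 to 0.860. DPYSL5 (1.27-fold, interval 1.23 to 1.32) and L1CAM (1.25-fold, interval 1.20 to 1.30) were higher in clone 2. Smaller differences in STMN2 (1.02 to 1.13), TUBB3 (0.907 to 0.997) and MAP2 (0.829 to 0.950) also had counting intervals that excluded equal levels. The intervals of DCX (0.773 to 1.81), INA (0.804 to 1.18), ELAVL4 (0.665 to 1.08) and SNAP25 (0.889 to 1.20) included equal levels. These intervals cover counting error only.

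Levels of different genes were compared per kilobase of exon in the gene model (CPM per kb), a scale that depends on how complete each model is. In fibroblasts TUBB3 (2.11 CPM per kb) and DCX (1.45 CPM per kb) led and together made up most of the summed level. In iNSLCs STMN2 led with 173 CPM per kb, 46.8% of the sum over the 10 genes, followed by TUBB3 (60.1), DPYSL5 (50.0), MAP2 (28.4), ELAVL3 (16.9), DCX (14.7), INA (9.06), ELAVL4 (6.36), SNAP25 (5.78) and L1CAM (5.34 CPM per kb). With 1 iNSLC library, the spread behind that order is unknown.

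In the iPSCs 4 genes shared the top. STMN2 (45.3 ± 2.29), TUBB3 (45.3 ± 1.63), L1CAM (43.9 ± 6.81) and DPYSL5 (40.9 ± 6.93 CPM per kb, SD, n = 2) did not differ beyond the spread between clones, and their order changed from clone to clone. MAP2 (4.85 ± 0.410), SNAP25 (4.69 ± 0.102) and ELAVL3 (4.57 ± 1.01 CPM per kb) formed a lower level whose members likewise did not differ beyond that spread. INA (2.14 ± 0.0441) and ELAVL4 (1.98 ± 0.234 CPM per kb) followed, and DCX was last at 0.419 ± 0.0470 CPM per kb. Among all genes tested, ranked per kilobase, STMN2 stood at percentile 98.9 in iNSLCs and 92.7 and 93.6 in the clones. DCX went from percentile 78.5 in iNSLCs to 16.9 and 18.5, and L1CAM from 52.8 to 91.7 and 93.9.

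**Figure D3:**
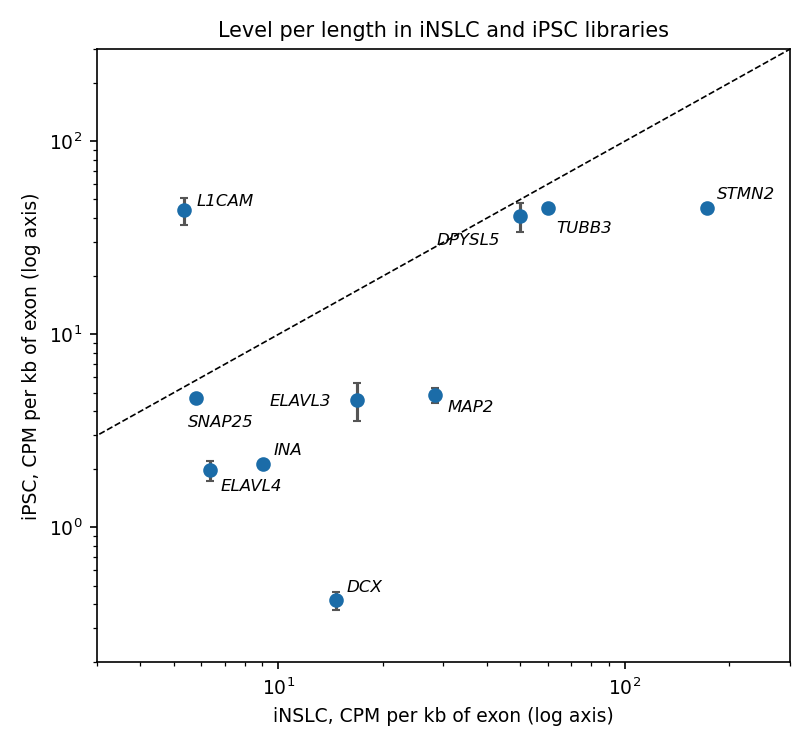
CPM per kb of exon of the 10 genes in the iNSLC library (x axis, log scale) against the mean of the 2 iPSC clones (y axis, log scale), with the SD between clones as bars. The dashed line marks equal levels. L1CAM lies above the line, DCX farthest below it, and DPYSL5, TUBB3 and SNAP25 just below it.

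Likeness between profiles was measured as the Euclidean distance between centred log2 CPM over the 4 libraries, with libraries under 3 counts set to 3 counts, among 10110 genes. Within the 10 genes, STMN2 and INA were the closest pair (distance 0.16), followed by INA and ELAVL3 (0.44), and DCX and DPYSL5 were the farthest apart (10.87). DCX had the largest median distance to the other members (7.02), then DPYSL5 (5.91) and L1CAM (4.49), while the other 7 lay between 2.67 and 3.08. Over all genes the gene nearest to STMN2 was SEMA5B (0.11), a semaphorin with 0.130, 54.0, 15.1 and 15.6 CPM in fibroblasts, iNSLCs and clones 1 and 2. INA (0.16) and SLIT1 (0.36), a secreted axon guidance ligand, came next, beside a median distance of 6.80 over all genes.

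The nearest profiles to DCX were those of HOXA3 (0.59), a homeobox factor, ROBO3 (0.67), a receptor of commissural axons, and PDCD1LG2 (0.78), an immune checkpoint ligand. ROBO3 had 1.77 CPM in fibroblasts, 31.5 CPM in iNSLCs and 0.760 and 0.962 CPM in the clones. Among the nearest to DPYSL5 were LIN28A (0.77) and LRRN1 (0.95), where distances depend on the 3-count floor because DPYSL5 was at 0 in fibroblasts. LIN28A had 0.0864 CPM in fibroblasts, 202 CPM in iNSLCs and 285 and 349 CPM in the clones, and LIN28 was also carried by the vectors.

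The relatives of each gene were read as lists, by counts called with edgeR and median log2 ratios, beside the shares and medians of all genes given above. Of the other stathmins, 1 of 3 rose and 1 fell from fibroblasts to iPSCs, and 2 fell from iNSLCs to iPSCs (median -3.23). STMN1, the stathmin of dividing cells, had 39.4 CPM in fibroblasts, 387 CPM in iNSLCs and 219 and 271 CPM in the clones and rose 6.23-fold over fibroblasts (adjusted p = 0.00119, edgeR), with an adjusted p of 0.0503 against iNSLCs. STMN4 fell 28.6-fold from iNSLCs (adjusted p = 0.00838, edgeR), from 7.68 CPM to 0.253 and 0.284 CPM. STMN3 had 5.25 CPM in fibroblasts and 8.62 CPM in iNSLCs, and fell to 1.18 and 0.656 CPM in the clones.

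Among 9 microtubule-associated and doublecortin-like genes, 4 rose and 3 fell in iPSCs against fibroblasts (median -0.11), and 0 rose and 5 fell against iNSLCs (median -1.21). MAP7, a kinesin cofactor also expressed in epithelia, rose from 0.497 CPM in fibroblasts to 166 and 139 CPM in the clones and stood at 120 CPM in iNSLCs. MAP6 fell 4.53-fold from iNSLCs to iPSCs, from 20.9 CPM. MAP1A fell in both comparisons, with 495 CPM in fibroblasts, 158 CPM in iNSLCs and 61.4 and 75.4 CPM in the clones. DCLK3, at 0 counts in fibroblasts, was 1.18 and 1.49 CPM in the clones.

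Of 12 tubulin genes 9 were found and 8 tested, of which 3 rose and 1 fell against fibroblasts (median 0.58), and 2 rose and 1 fell against iNSLCs (median -0.29). TUBB4A, a neural β-tubulin, was above its iNSLC level in the iPSCs, with 2.05 CPM in fibroblasts, 83.2 CPM in iNSLCs and 148 and 160 CPM in the clones (1.85-fold higher than iNSLCs, adjusted p = 0.0154, edgeR). TUBB2B, abundant in migrating neurons, rose 2.02-fold over fibroblasts and fell 1.52-fold from iNSLCs. TUBB6, a broadly expressed β-tubulin, had 145 CPM in fibroblasts, 16.1 CPM in iNSLCs and 74.8 and 55.2 CPM in the clones. TUBB1, the platelet form, stayed between 0.907 and 2.76 CPM and passed neither test.

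The 4 other collapsin response mediator proteins split, 2 rising and 1 falling against fibroblasts (median 1.57), and 2 falling against iNSLCs (median -0.74). CRMP1 rose 8.06-fold over fibroblasts (adjusted p = 0.000960, edgeR) and had 136 CPM in iNSLCs and 108 and 133 CPM in the clones. DPYSL3 was highest in fibroblasts at 926 CPM, and fell to 156 and 194 CPM in the clones from 519 CPM in iNSLCs. DPYSL4 rose over fibroblasts, with 18.3 CPM in iNSLCs and 7.43 and 15.4 CPM in the clones. DPYSL2 had 201 CPM in fibroblasts and 204 and 233 CPM in the clones, where its difference was not called, and fell 1.74-fold from 381 CPM in iNSLCs.

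Of 8 further intermediate filament genes, 5 rose and 2 fell against fibroblasts (median 4.0), and 4 fell against iNSLCs (median -0.78). NEFL, the light neurofilament subunit, had 0.302 CPM in fibroblasts, 48.9 CPM in iNSLCs and 7.05 and 7.39 CPM in the clones, and fell 6.77-fold from iNSLCs (adjusted p = 0.00420, edgeR). NEFM, the medium subunit, fell 1.73-fold from 72.8 CPM to 40.6 and 43.4 CPM (adjusted p = 0.0218, edgeR). PRPH, a filament of peripheral neurons, fell 7.80-fold from iNSLCs. Nestin (NES), the filament of neural stem cells, had 30.6 CPM in fibroblasts, 384 CPM in iNSLCs and 461 and 505 CPM in the clones, with no call between the last groups (adjusted p = 0.110, edgeR). Vimentin (VIM), the mesenchymal filament, fell 18.4-fold from 13441 CPM in fibroblasts, with 969 CPM in iNSLCs and 740 and 725 CPM in the clones.

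**Figure D4:**
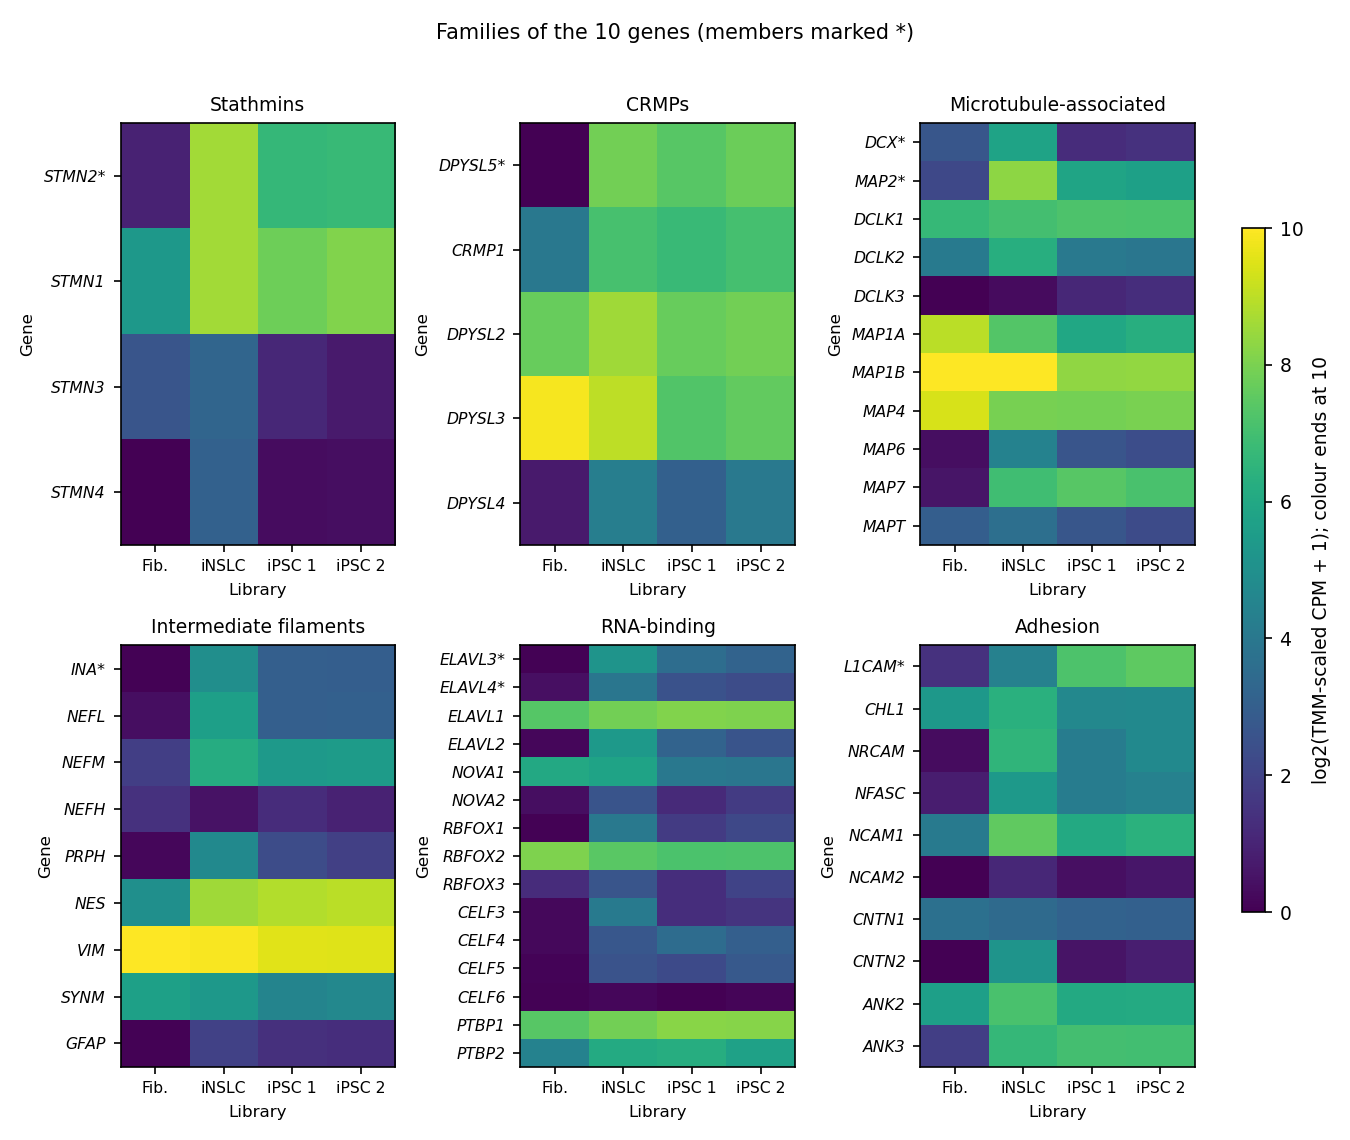
Heat maps of log2(TMM-scaled CPM + 1) in the 4 libraries for 6 gene families, rows being genes, columns libraries, and asterisks marking the genes described here. The colour scale ends at 10. STMN2, NEFL, ELAVL2, NRCAM and CNTN2 are brightest in the iNSLC column, and L1CAM in the iPSC columns.

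The list of 13 other RNA-binding genes held neuronal genes and also ELAVL1 (HuR) and PTBP1, which are broadly expressed outside neurons and were both among those that rose against fibroblasts. Of the 13 genes 12 were tested, and 9 rose and 2 fell against fibroblasts (median 2.15), while 4 fell and 0 rose against iNSLCs (median -0.74). ELAVL2 (HuB), another neuronal Hu protein, had 0.130 CPM in fibroblasts, 41.5 CPM in iNSLCs and 7.98 and 5.07 CPM in the clones, a 6.36-fold fall (adjusted p = 0.0102, edgeR). RBFOX1 and CELF3, both neuronal splicing regulators, fell 5.19-fold and 9.46-fold from iNSLCs. RBFOX3, known as NeuN, the marker of mature neuronal nuclei, was low throughout, with 1.40 CPM in fibroblasts, 5.30 CPM in iNSLCs and 1.48 and 3.06 CPM in the clones, and passed neither test. CELF5 had 4.92 CPM in iNSLCs and 3.80 and 5.90 CPM in the clones.

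Among 9 adhesion genes of the L1 and contactin families and their ankyrin anchors, 7 rose and 1 fell against fibroblasts (median 2.70), and 6 fell and 0 rose against iNSLCs (median -1.30), where L1CAM rose. NRCAM, of the L1 family itself, had 0.259 CPM in fibroblasts, 92.2 CPM in iNSLCs and 17.5 and 26.2 CPM in the clones, and fell 4.22-fold from iNSLCs (adjusted p = 0.0131, edgeR). NFASC fell 2.20-fold (adjusted p = 0.0189, edgeR). CNTN2, a contactin of early axons, had 34.8 CPM in iNSLCs and 0.422 and 0.787 CPM in the clones, a 57.6-fold fall (adjusted p = 0.00353, edgeR). ANK3, the ankyrin of the axon initial segment that is also found in epithelia, had 99.8 CPM in iNSLCs and 128 and 125 CPM in the clones (adjusted p = 0.0919, edgeR).

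Of 18 SNARE and vesicle genes beside SNAP25, 5 rose and 4 fell against fibroblasts (median 0.64), and 2 rose and 7 fell against iNSLCs (median -0.81). SYT1, the calcium sensor of release, fell 5.29-fold, from 22.8 CPM to 3.17 and 5.44 CPM (adjusted p = 0.0176, edgeR). CPLX2, a complexin, fell 4.57-fold, and SYT4, another synaptotagmin, fell 9.93-fold from 3.21 CPM.

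REST itself was not found by name, so its level was not analysed here. Of 8 genes of the REST and corepressor list 7 were found and 6 tested, with 3 higher and 2 lower against fibroblasts (median 1.0) and 1 lower against iNSLCs (median -0.13). RCOR2 had 5.77 CPM in fibroblasts, 61.1 CPM in iNSLCs and 43.7 and 63.7 CPM in the clones. HDAC1 and HDAC2, the deacetylases of many corepressor complexes, rose 3.27-fold and 3.20-fold over fibroblasts, and CTDSP1, a small phosphatase that stabilises REST, fell 3.95-fold. None of these 4 differed from iNSLCs by the test, with adjusted p from 0.0828 (CTDSP1) to 0.622 (RCOR2).

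Factors of neuronal differentiation, a list of transcription factors that also holds the Notch ligands DLL1 and DLL3, had the lowest median against iNSLCs of the neuronal lists. Of 25 genes 24 were tested, and 17 fell, DLL1 among them, and 1 rose (median -3.55), while against fibroblasts 8 rose, DLL3 among them, and 4 fell, DLL1 among them (median 0.78). NEUROD4, a proneural factor, had 13.3 CPM in iNSLCs and 0 counts in fibroblasts and both clones, at least 138-fold lower against 3 counts in each clone (adjusted p = 0.00860, edgeR). INSM1, a factor of newborn neurons and endocrine cells, fell 26.7-fold, from 10.6 CPM to 0.464 and 0.328 CPM (adjusted p = 0.00696, edgeR). ONECUT1, a homeobox factor, fell from 16.0 CPM to 0.760 and 2.12 CPM (adjusted p = 0.0167, edgeR). The gene that rose was EOMES, which also marks mesendoderm, with 2.48 CPM in iNSLCs and 157 and 109 CPM in the clones.

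Genes of mature neurons were not uniformly low in iPSCs. Of 19 genes 16 were tested, with 8 higher and 1 lower against fibroblasts (median 1.07), and 1 higher and 5 lower against iNSLCs (median -1.03). UCHL1, a deubiquitinase abundant in neurons, rose 2.61-fold over iNSLCs (adjusted p = 0.00598, edgeR), with 292 CPM in fibroblasts, 167 CPM in iNSLCs and 433 and 437 CPM in the clones. GAP43, of growth cones, had 1.40 CPM in fibroblasts, 16.4 CPM in iNSLCs and 21.5 and 19.6 CPM in the clones (adjusted p = 0.260 against iNSLCs, edgeR). RTN1, a reticulon, and NSG2, an endosomal protein of neurons, fell from 26.3 and 6.21 CPM in iNSLCs, RTN1 by 7.59-fold, and NSG2 had 0 and 0.0874 CPM in the clones. SLC17A7, the vesicular glutamate transporter, had 7.68 CPM in iNSLCs and 14.7 and 19.8 CPM in the clones (adjusted p = 0.0524, edgeR), and GAD2, a GABA-synthesising enzyme, lay between 1.94 and 2.55 CPM in the reprogrammed libraries.

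**Figure D5:**
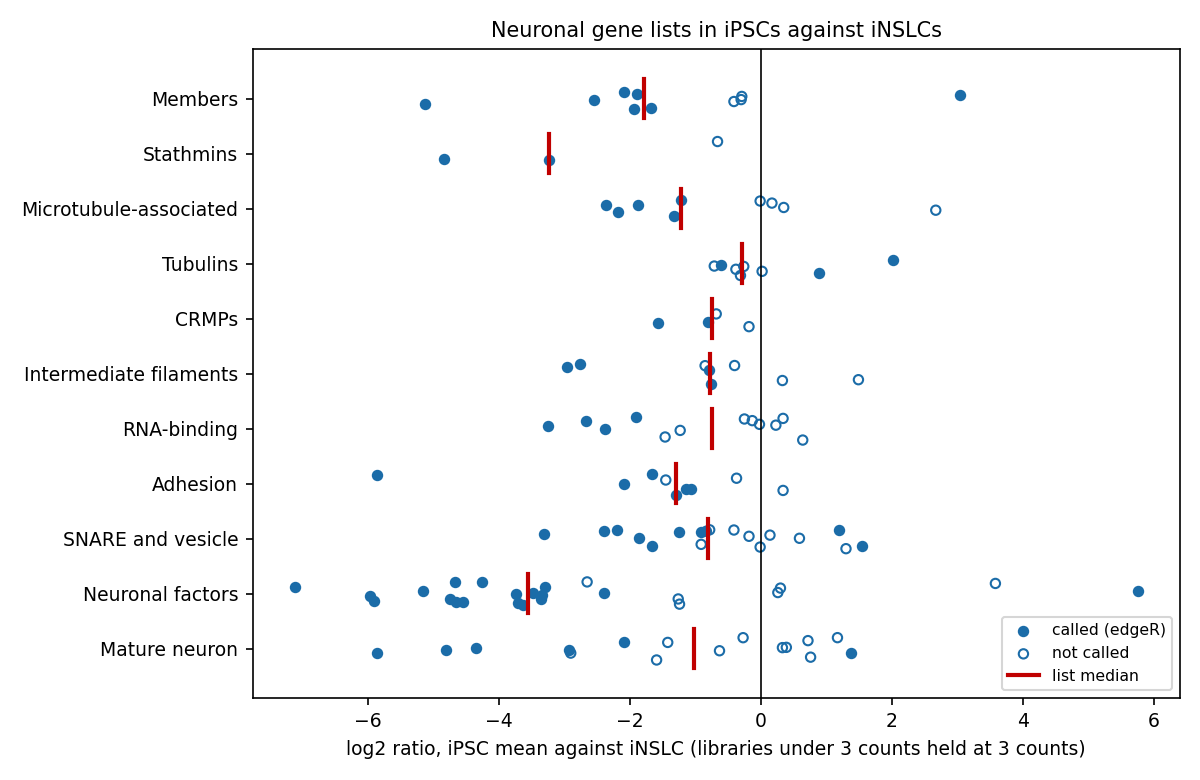
Log2 ratios of iPSC mean to iNSLC for the 10 genes (first row) and 10 related gene lists, 1 point per tested gene, filled where called by edgeR, with red bars at the list medians. Points are spread vertically at random to separate them. All list medians lie below 0, the lowest being that of the factors of neuronal differentiation at -3.55.

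Markers of other cells also changed between the libraries, and not all in the direction of these genes. All 12 fibroblast markers had counts in every library, the iPSC clones included. They summed to 139305 CPM in fibroblasts, 53625 CPM in iNSLCs and 1037 and 969 CPM in the clones, mostly from collagen genes in the first 2 groups. From fibroblasts to iNSLCs 5 of the 12 were at least 4-fold lower and 1 at least 4-fold higher (median log2 ratio -1.77, untested). PDGFRB went from 680 to 85.6 CPM and POSTN from 39.5 to 702 CPM, both named after their values were seen. From iNSLCs to iPSCs 10 of the 12 fell, as did 6 of the 10 neuronal genes, and from fibroblasts to iPSCs 11 fell. COL1A1 had 64539 CPM in fibroblasts and 21575 CPM in iNSLCs, and DCN 1261 and 673 CPM, with 1.48 and 0.874 CPM in the clones. FAP had 49.8 CPM in fibroblasts, 43.6 CPM in iNSLCs and 0.296 and 0.0437 CPM in the clones. The part of this marker difference in the neuronal results was not tested.

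Pluripotency markers summed to 4.06 CPM in fibroblasts, 593 CPM in iNSLCs and 2004 and 1987 CPM in the clones, and 7 of 9 rose and 0 fell against fibroblasts, while 5 rose and 1 fell against iNSLCs. The gene that fell, DPPA5, named after its values were seen, had 3.35 CPM in iNSLCs and 0.253 and 0.240 CPM in the clones (13.6-fold lower, adjusted p = 0.0177, edgeR). NANOG had 0.209 CPM in iNSLCs and 52.4 and 40.9 CPM in the clones, and POU5F1 had 40.5 CPM in iNSLCs and 295 and 275 CPM. DNMT3B had 328 CPM in iNSLCs and 1303 and 1209 CPM in the clones. POU5F1 (OCT4), NANOG and SOX2 were also carried by the vectors, and vector reads were not separated from endogenous reads here.

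Neural stem cell markers summed to 167 CPM in fibroblasts, 915 CPM in iNSLCs and 852 and 954 CPM in the clones, with 6 of 13 higher and 3 lower against fibroblasts and 2 higher and 7 lower against iNSLCs. SOX2 had 134 CPM in iNSLCs and 211 and 254 CPM in the clones, MSI1 151 CPM and then 85.2 and 97.1 CPM, and FABP7, of radial glia, 83.0 CPM and then 15.0 and 22.5 CPM. SOX3 fell 2.52-fold from 15.6 CPM. In fibroblasts SOX2, MSI1 and SOX3 had 0.281, 0.345 and 0.0432 CPM, and FABP7 had 0 counts. From fibroblasts to iNSLCs, 6 of the 13 met the 4-fold size rule upwards and 0 downwards (median log2 ratio 4.81, untested). Lower in iNSLCs than in fibroblasts were PAX6 (14.6 against 21.5 CPM), SOX9 (10.4 against 33.4), SLC1A3 (18.9 against 35.3) and LHX2 (0.768 against 2.55). These lower genes were named after their values were seen.

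Glial and Schwann cell markers summed to 111 CPM in fibroblasts, 71.6 CPM in iNSLCs and 46.9 and 64.1 CPM in the clones over the 9 of 10 that were found. PMP22, named after its values were seen, made up most of each sum, with 110, 49.6, 32.9 and 50.3 CPM. The median log2 ratio from fibroblasts to iNSLCs was 3.52 over the 8 genes that passed the filter (no test). In fibroblasts 3 of the 9 had 0 counts. In the iPSCs 4 markers rose and 1, PMP22, fell against fibroblasts, and 2 fell against iNSLCs. GFAP was at most 2.79 CPM, in iNSLCs, and SOX10 was 3.73 CPM there and 0.507 and 0.962 CPM in the clones. OLIG1 was at 0 in all libraries.

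Neuroendocrine markers, which share SNAP25, INA and the secretory machinery with neurons, summed to 4.99 CPM in fibroblasts, 127 CPM in iNSLCs and 106 and 115 CPM in the clones. Of 11 genes 10 were tested, and 6 rose against fibroblasts, while 1 rose and 4 fell against iNSLCs. CHGA (chromogranin A) had 19.4 CPM in iNSLCs and 42.5 and 39.4 CPM in the clones (2.11-fold higher, adjusted p = 0.0186, edgeR). SCG5 had 50.1 CPM in iNSLCs and 38.3 and 52.2 CPM in the clones. DBH, the noradrenaline-synthesising enzyme, fell 9.97-fold from 9.84 CPM, and PCSK1, a prohormone convertase, was between 1.26 and 4.81 CPM in the reprogrammed libraries. Their part, and that of the stem cell and glial markers, in the neuronal results was not tested.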

How the data were processed

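RNA-seq was made from 4 porcine libraries (1 fibroblast, 1 iNSLC and 2 iPSC clones), with total RNA extracted by column and standard Illumina libraries. The authors deposited raw counts per gene, and per the labels the reads were processed with Trim Galore 0.4.0, STAR 2.5.3a and featureCounts 1.5.2 on Sscrofa11.1. The annotation release, the strand setting and the handling of reads that map to several genes are not given in the sources used here. Overlapping and near-identical genes are therefore uncertain. The deposited exon length of each gene gave the CPM per kb. The table also holds genomic coordinates, printed as given.

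The table held 25880 genes, of which 14857 received symbols by identifier and 1454 by an overlap of at least 80% with a single RefSeq protein-coding gene on Sscrofa11.1, and 9569 none. All 10 genes were matched by identifier. Counts were scaled with TMM, filtered with filterByExpr and tested with edgeR 4.0.16 (quasi-likelihood F test, two-sided, all 4 libraries in 3 groups, no covariates, R 4.3.3). P-values were adjusted by the Benjamini-Hochberg method over 15739 genes at 0.05. SEs are the fitted log2 ratio divided by the square root of F, and 95% intervals use the t distribution with the fit's degrees of freedom. Folds are ratios of group means of TMM-scaled CPM with libraries under 3 counts raised to 3 counts, so they can differ slightly from the fitted log2 ratios, and list medians use these ratios. Calls by size needed a 4-fold ratio, and each library on the higher side had to reach 10 CPM. Ratios of 2 libraries have exact conditional binomial 95% intervals. PCR reads without molecular identifiers are not independent molecules, so these intervals and the limits at 0 counts cover counting error only.

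The 10 genes and all lists were chosen with earlier results of these data known. From each list, up to 4 genes at 1 CPM or more in any library with the widest log2 range of group means were named, plus NEFL, NEFM, NES, VIM, RBFOX3, GAP43, UCHL1 and REST, and the 3 nearest profiles for STMN2, DCX and DPYSL5. Some genes that this rule selects are not reported here. The fits were tested on simulated data. The fits were repeated with RLE scaling, with total counts, with other low-count filters, with DESeq2 1.42.0, with only the groups compared, with other floors and folds, without each clone and, added after the data were seen, the older edgeR quasi-likelihood fit.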

Additional observations from a re-analysis of the deposited data

How the results depend on the processing

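The counts of the 10 genes called in each direction were the same under all scaling, filter and tool alternatives except for TUBB3 in iPSCs against iNSLCs, which passed the edgeR test with a filter of 1 CPM in 2 libraries (log2 -0.44, adjusted p = 0.0487) and when only these groups were fitted (log2 -0.42, adjusted p = 0.0497). With a 2-fold size rule, 6 genes rather than 3 were lower in iPSCs than in iNSLCs. Without a low-count filter, 1340 rather than 2069 of all genes were called higher in iPSCs than in iNSLCs. With total-count scaling, 7264 rather than 4651 genes were called higher and 2754 rather than 4440 lower in iPSCs than in fibroblasts, and the log2 ratios of 5 genes between iNSLCs and fibroblasts moved beyond their counting intervals (to 3.93 for DCX, 4.12 for L1CAM, 5.42 for TUBB3, 7.09 for MAP2 and 9.32 for STMN2). Without either clone, 6 to 7 genes were at least 4-fold higher in iPSCs than in fibroblasts and 3 to 4 at least 4-fold lower than in iNSLCs, as values with no test. No paired analysis was possible because the fibroblast and iNSLC groups have 1 library each. Single libraries of 2 groups limit every comparison, and in fibroblasts depth limits INA and ELAVL3 (2 counts each), SNAP25 (4 counts) and DPYSL5 (0 counts).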
